A study of Mus musculus with 12 samples.

Results

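The NR4A genes Nr4a1, Nr4a2 and Nr4a3 were examined in mouse lung cells sorted by Siglec F to collect alveolar macrophages. The cells came from mice with the whole liver and from mice that had lost 70% of it. They also carried signal of other cell types, described below. The genes were found by their symbol in the probe annotation. Each had 1 probe set on the Clariom S mouse array (TC1500001067.mm.2 for Nr4a1, TC0200003560.mm.2 for Nr4a2 and TC0400000529.mm.2 for Nr4a3), so the 3 genes were described by 3 of the 22206 probe sets tested. These probe sets represent 19505 genes with a symbol. The animals were male C57 Black mice, either left with the whole liver (called intact) or taken 1, 3 and 7 days after the resection. Each of these 4 groups held 3 biological replicates with 1 array each. The lung cells had been pulled out with magnetic beads carrying an antibody to Siglec F, a lectin that eosinophils also bear. The labels state neither the age of the mice nor whether the intact mice had a sham operation.

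NR4A proteins are nuclear receptors for which no classical hormone is required: their activity follows chiefly from how much of the protein is made. Nr4a1 encodes Nur77, Nr4a2 encodes Nurr1 and Nr4a3 encodes Nor-1. All are immediate early genes, switched on within the first hour of a stimulus by kinases that act through the transcription factors CREB, MEF2 and SRF. In macrophages they are induced by bacterial products, prostaglandins and cyclic AMP, and Nur77 and Nurr1 are known to restrain NF-kB target genes. Nur77 is also needed for the patrolling monocytes of the blood.

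The promoters are shown because CREB is a well known inducer of all 3 genes. CREB binds the cyclic AMP response element (CRE), whose core is TGACG, read as CGTCA on the other strand. The 250 bases before the annotated start (RefSeq, build GRCm38.p6, written 5′ to 3′ on the strand of the gene) are given with each CRE core in capitals, on either strand. The regions are chr15:101266596-101266845 on the plus strand for Nr4a1, chr2:57124004-57124253 on the minus strand for Nr4a2 and chr4:48045055-48045304 on the plus strand for Nr4a3.
Nr4a1: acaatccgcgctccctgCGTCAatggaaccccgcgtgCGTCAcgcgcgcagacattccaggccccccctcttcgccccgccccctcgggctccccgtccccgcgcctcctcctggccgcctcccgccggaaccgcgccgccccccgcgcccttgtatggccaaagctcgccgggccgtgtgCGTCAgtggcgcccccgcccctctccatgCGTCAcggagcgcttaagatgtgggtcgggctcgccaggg
Nr4a2: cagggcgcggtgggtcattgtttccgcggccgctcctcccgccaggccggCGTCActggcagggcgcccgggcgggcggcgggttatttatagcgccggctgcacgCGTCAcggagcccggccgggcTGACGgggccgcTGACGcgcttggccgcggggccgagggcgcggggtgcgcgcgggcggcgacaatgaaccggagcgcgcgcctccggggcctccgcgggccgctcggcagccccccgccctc
Nr4a3: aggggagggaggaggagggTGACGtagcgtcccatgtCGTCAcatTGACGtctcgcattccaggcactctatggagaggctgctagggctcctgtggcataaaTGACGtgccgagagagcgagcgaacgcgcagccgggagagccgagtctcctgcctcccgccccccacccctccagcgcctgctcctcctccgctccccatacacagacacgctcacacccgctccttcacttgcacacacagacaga

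Each of the 3 promoters held 4 CRE cores. Of 32851 windows of the same length before annotated starts, 45 (0.137%) held 4 or more, and 17.8% held at least 1. The promoters were rich in G and C, with 74.4% for Nr4a1, 80.0% for Nr4a2 and 63.6% for Nr4a3 against a median of 52.4% over all windows. Among the 6582 windows with at least 63.6%, 0.38% had 4 or more cores. In Nr4a1 all 4 cores lay on the opposite strand, and the nearest ended 36 bases before the start. In Nr4a3 the cores lay at least 143 bases before it, and in Nr4a2 at least 107. The whole palindrome TGACGTCA, searched on both strands and present in 1.55% of windows, did not occur in any of the 3. The same held for AAAGGTCA, the element that a lone NR4A protein binds (1.34% of windows), and for the CArG box bound by SRF (1.47%). Nr4a2 alone held a MEF2 element, which 2.92% of windows had. These matches describe letters and not sites in use.

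**Figure D1:**
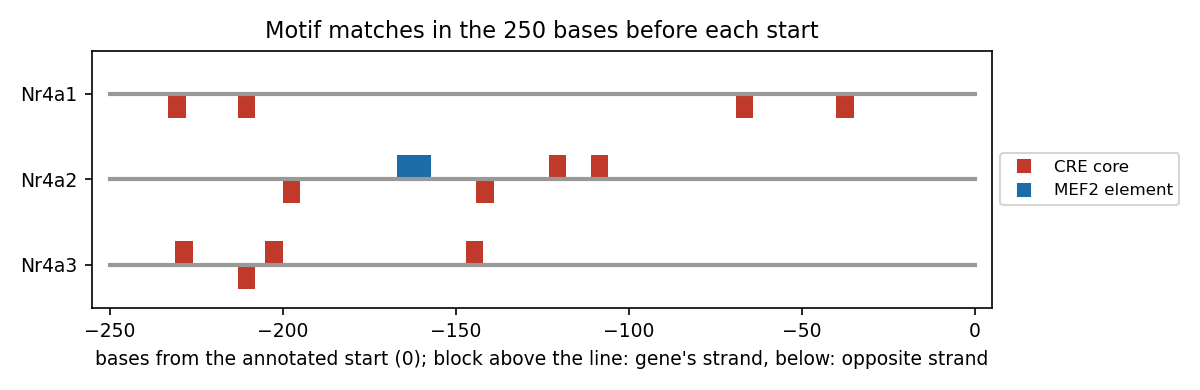
Positions of motif matches in the 250 bases before the annotated start of Nr4a1, Nr4a2 and Nr4a3 (x axis, bases from the start, with a block above the line on the strand of the gene and below it on the opposite strand). Each gene has 4 CRE cores (red), and Nr4a2 has 1 MEF2 element (blue).

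Signals are log2 values, so a difference of 1 is a doubling on the linear scale. The negative control probe sets give the level of background: their upper 95% limit lay between 5.01 and 5.69 on the 12 arrays. The 15 alveolar macrophage markers measured had a mean level of 8.65 to 9.33 at day 1, 8.91 to 9.19 at day 3 and 9.02 to 9.42 at day 7, against 9.07 to 9.40 in intact samples, and the mean of each marker was above background in each group. Their median difference from intact was -0.20 at day 1 (0.049 without day 1 replicate 2), -0.22 at day 3 and -0.021 at day 7. Single markers differed more. At days 1, 3 and 7 Car4 differed by -1.06, -0.87 and -0.11, Marco by 0.11, -0.61 and 0.48 and Cd200r4 by -0.43, 0.36 and 0.075. Day 1 replicate 2, day 3 replicate 1 and day 7 replicate 2 separated positive from negative control probe sets least (area under the curve 0.809 to 0.838, against 0.852 to 0.888 on the other 9 arrays). Day 3 replicate 1 and day 7 replicates 2 and 3 carried the labelling control dap at 6.47 to 7.77, against 2.13 to 2.89 elsewhere. Another control, bioB, differed by group. It stood at 7.53 to 7.72 on intact arrays, 8.62 to 10.29 at day 1, 7.44 to 7.83 at day 3 and 8.19 to 8.55 at day 7. Day 1 replicate 2 was the highest, and whether this bears on the gene differences was not tested.

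Nr4a2 was the NR4A gene that differed most. Its log2 signal in replicates 1, 2 and 3 was 8.29, 7.60 and 7.28 in intact samples, 5.51, 4.49 and 6.003 at day 1, 6.87, 7.32 and 6.75 at day 3, and 7.49965, 6.14 and 5.92 at day 7. All 3 arrays of day 1 lay below all intact arrays, and replicate 2 of day 1 was within background. The day 3 and day 7 arrays reached into the intact range through 1 array each.

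At day 1 Nr4a2 averaged 5.34 ± 0.77, against 7.72 ± 0.52 in intact samples (log2, SD, n = 3 each). The log2 difference was -2.39 ± 0.44 (SE, 95% confidence interval -3.35 to -1.42), which is 19.1% of the intact signal. In limma, adjusted after Benjamini and Hochberg for all 22206 probe sets, the adjusted p was 0.167 and the gene did not pass 0.05. Of all probe sets 0.0675% had a more negative difference, and 18 had a smaller unadjusted p. Without day 1 replicate 2, the array of weakest control separation, the difference was -1.97 (adjusted p = 0.286). With arrays weighted by quality it was -1.99 and the adjusted p was 0.0368, the only alternative among 24 in which it passed. The share of all probe sets that passed with these weights is not given, here or for the weighted results below.

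The lowest mean of Nr4a2 was at day 1, and the order upward was day 7, day 3 and intact. Day 3 was above day 1 by 1.65 ± 0.44 with no overlap of arrays (limma adjusted p = 0.365), and day 7 was above day 1 by 1.18 ± 0.44 with overlap (adjusted p = 0.738). The value for day 7 over day 1 was 0.763 without day 1 replicate 2, 0.694 without day 7 replicate 1, 0.589 with array weights and 2.16 without the arrays that carried dap. Neighbours higher in this order overlapped: day 7 differed from day 3 by -0.46 (95% interval -1.43 to 0.50, with the sign reversed at 0.463 without the arrays that carried dap) and day 3 from intact by -0.74 (-1.71 to 0.22). Against intact samples day 7 differed by -1.20 ± 0.44 (adjusted p = 0.757). The value for day 7 hung on arrays with the labelling control: without them, when day 7 rested on replicate 1 alone, it was -0.22, and with dap as a term in the model it was -0.66. With array weights, which favour replicate 3, it was -1.41 (adjusted p = 0.0456). Without intact replicate 1, the highest of all arrays, the day 3 difference was -0.46.

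Nr4a3 had log2 values of 9.93, 9.58 and 9.36 in intact samples, 9.07, 8.36 and 8.66 at day 1, 9.57, 9.20 and 9.23 at day 3, and 9.65, 9.42 and 9.07 at day 7. Only the day 1 arrays lay wholly below the intact ones. The mean at day 1 was 8.70 ± 0.35, against 9.62 ± 0.28 in intact samples (log2, SD, n = 3 each). This is a log2 difference of -0.93 ± 0.23 (95% interval -1.42 to -0.43), or 52.6% of the intact signal, with a limma adjusted p of 0.286. It was -0.76 without day 1 replicate 2.

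At day 3 and day 7 Nr4a3 was close to the intact level, at -0.29 (95% interval -0.79 to 0.21) and -0.24 (-0.74 to 0.25). Day 3 was above day 1 by 0.64 ± 0.23 without overlap (limma adjusted p = 0.446; 0.352 without the 3 arrays of weakest control separation), and day 7 by 0.68 ± 0.23 with overlap (adjusted p = 0.715). Day 3 and day 7 differed by 0.044 ± 0.23, far less than their spread, and by 0.4305 without the arrays that carried dap. The small differences from intact moved with single arrays: that of day 3 was -0.14 when intact replicate 1 was dropped. For day 7 it was -0.093 in the same case, between -0.38 and -0.089 when 1 of the day 7 arrays was dropped, and 0.024 without the arrays that carried dap.

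The log2 values of Nr4a1 were 9.38, 9.44 and 9.31 in intact samples, 8.63, 8.54 and 8.95 at day 1, 8.48, 8.64 and 8.86 at day 3, and 9.28, 9.003 and 8.91 at day 7. The intact arrays lay within 0.12 of each other, and all 9 arrays of resected mice were below them. Day 7 replicate 1 was closest, just under the lowest intact array.

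The mean of Nr4a1 was 8.70 ± 0.21 at day 1 and 8.66 ± 0.19 at day 3, against 9.38 ± 0.06 in intact samples (log2, SD, n = 3 each). The log2 differences were -0.67 ± 0.17 (95% interval -1.05 to -0.30) at day 1 and -0.72 ± 0.17 (-1.09 to -0.34) at day 3. These are 62.6% and 60.7% of the intact signal, with limma adjusted p-values of 0.289 and 0.462. With array weights the day 3 difference was -0.65 and passed (adjusted p = 0.0317). Day 1 and day 3 could not be put in order, since they differed by -0.044 ± 0.17. Day 7 averaged 9.06 ± 0.19, above day 3 by 0.41 ± 0.17 without overlap (adjusted p = 0.951) and below intact samples by 0.31 ± 0.17 (adjusted p = 0.9501). Without the arrays that carried dap the day 7 difference from intact was -0.098.

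**Figure D2:**
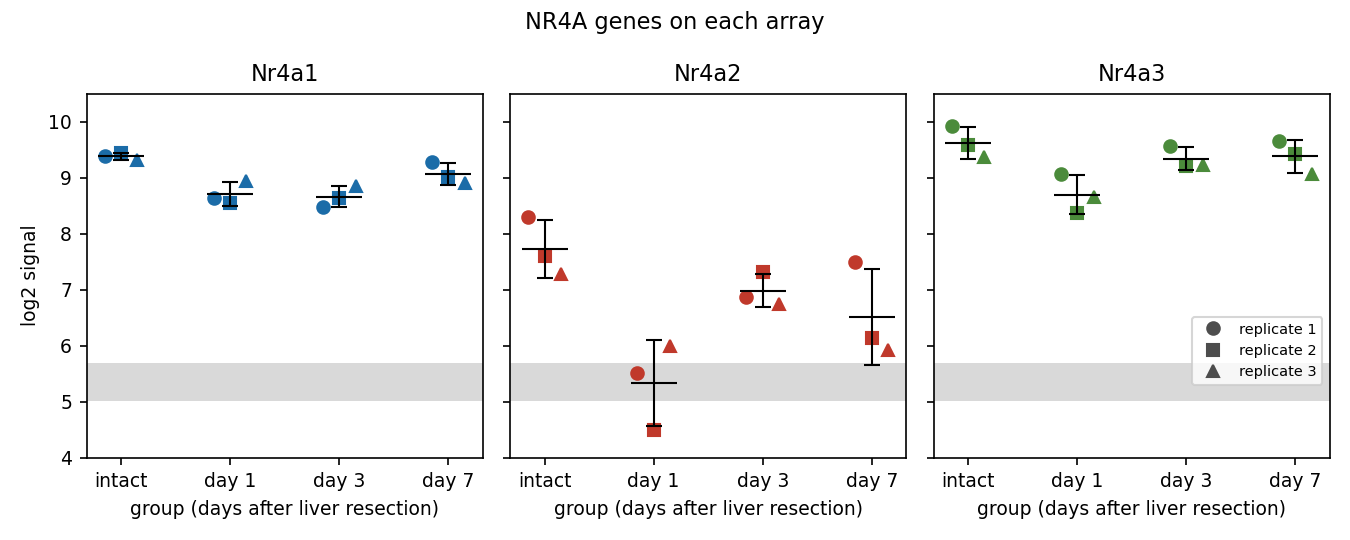
Log2 signal (y axis) of Nr4a1, Nr4a2 and Nr4a3 on each array by group (x axis), with symbols for replicates, black bars for the mean ± SD of 3 arrays and a grey band for the upper 95% limits of the negative control probe sets (5.01 to 5.69). All 3 genes lie below intact at day 1, Nr4a1 also at days 3 and 7, and Nr4a2 reaches background at day 1.

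Counted over the 3 genes, all 3 had day 1 arrays entirely below the intact arrays, as did 8.94% of all probe sets. At day 3 and at day 7 this was so for 1 of 3, Nr4a1, beside 6.68% and 8.15% of probe sets. From day 1 to day 3 the upward separation held for 2 of 3, Nr4a2 and Nr4a3 (7.03% of probe sets), from day 3 to day 7 for 1, Nr4a1 (4.84%), and between day 1 and day 7 for 0 of 3 (4.55%). The comparisons with intact samples share the same 3 intact arrays and are not independent of each other.

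At an adjusted p of 0.05 in limma, 0 of the 3 genes passed in any pair of groups. Of all probe sets 0% passed at day 1, 0.0045% at day 3 and 0.018% at day 7 against intact, and 0% between any of the days, where at an unadjusted p of 0.05 the counts were 729 lower and 1403 higher (day 3 over day 1), 651 and 846 (day 7 over day 1) and 688 and 450 (day 7 over day 3). At an unadjusted p of 0.05, all 3 genes were lower at day 1, as were 5.9% of probe sets. Nr4a1 was so at day 3, with 2.5% of probe sets, and Nr4a2 at day 7, with 3.74%. The adjusted counts over all probe sets depended on the arrays: with the 3 arrays of weakest control separation left out, 71 passed at day 1, 252 at day 3, 280 at day 7, 395 for all resected arrays and 281 in the F test, in place of 0, 1, 4, 10 and 2. Without day 3 replicate 1 alone the first 4 of these were 12, 5, 8 and 69, and without day 1 replicate 2 alone 0, 7, 18 and 44. In the F test over the 4 groups 0.00901% of probe sets passed, and Nr4a2 had an adjusted p of 0.293, Nr4a1 of 0.384 and Nr4a3 of 0.478.

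**Figure D3:**
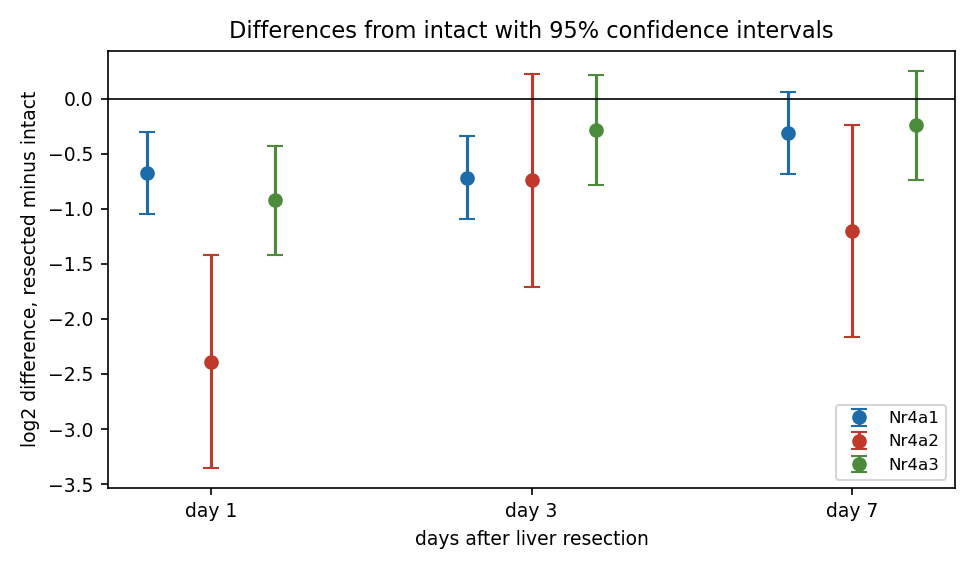
Log2 difference from intact (y axis, resected minus intact) at 1, 3 and 7 days (x axis) with limma's 95% confidence intervals from 3 arrays per group, unadjusted for the number of probe sets. The intervals exclude 0 for all 3 genes at day 1, for Nr4a1 at day 3 and for Nr4a2 at day 7.

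Pooling the 9 arrays of resected mice gave log2 differences from the 3 intact arrays of -0.57 for Nr4a1, -1.44 for Nr4a2 and -0.49 for Nr4a3. All 9 were below the lowest intact array for Nr4a1, which 0.919% of probe sets also showed, 7 for Nr4a2 and 6 for Nr4a3. The exact two-sided permutation test over the 220 ways to draw 3 arrays as intact gave p = 0.00455 for Nr4a1, the smallest it can give. For Nr4a2 the exact test gave p = 0.0409 and for Nr4a3 p = 0.1. All 3 of these exact p-values were unadjusted. In limma the adjusted p-values were 0.266, 0.283 and 0.733, and 0.045% of probe sets passed. With array weights Nr4a1 (-0.55, adjusted p = 0.0155) and Nr4a2 (-1.37, adjusted p = 0.00968) passed, but the share of all probe sets that did is not given.

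The differences from intact were also compared between the genes. At day 1 the Nr4a2 difference exceeded that of Nr4a1 by -1.71 on the log2 scale. Taken on each array as the deviation of Nr4a2 from its intact mean minus that of Nr4a1, the values were -2.39 to -1.29 at day 1, against -0.38 to 0.56 in intact samples, and did not overlap. Against Nr4a3 the excess of Nr4a2 was -1.46, with -1.97 to -0.76 at day 1 and -0.18 to 0.26 in intact samples. The exact two-sided permutation p was 0.1 for both, the smallest that 3 against 3 arrays allow. At day 3 Nr4a1 and Nr4a2 differed from intact by nearly the same amount (-0.023, p = 1 in the same exact test), and Nr4a1 and Nr4a3 overlapped with intact samples in this measure too (-0.43, exact p = 0.2). Nr4a2 against Nr4a3 gave -0.45 at day 3 (exact p = 0.3) and -0.96 at day 7 (exact p = 0.1, without overlap), and Nr4a2 against Nr4a1 gave -0.89 at day 7 (exact p = 0.3). Nr4a1 and Nr4a3 overlapped with intact samples in this measure on the other days as well, at 0.25 at day 1 (exact p = 0.4) and -0.070 at day 7 (exact p = 0.8).

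Likeness over the 12 arrays is given as Pearson's r, as a description, since all genes share the arrays and the 4 groups. Of the 3 genes, Nr4a2 and Nr4a3 were the closest pair (r = 0.872, Spearman's rho = 0.860). Their r was 0.680 without the 2 arrays farthest from the median of Nr4a2, and 0.796 without those farthest for Nr4a3. Other genes were closer still: Nr4a3 ranked 18 in likeness to Nr4a2, and Nr4a2 ranked 8 in likeness to Nr4a3. Within groups, on deviations from the group means, their r was 0.667. The r of Nr4a1 was 0.662 with Nr4a2 and 0.578 with Nr4a3 (0.486 and 0.385 without the 2 arrays farthest from the median of Nr4a1). Within groups it was 0.670 with Nr4a2, as high as for Nr4a2 with Nr4a3, and 0.193 with Nr4a3. Likeness was searched among 9753 genes of at least median signal, a bound that lies below the background limit. The 5 most like Nr4a2 were Pde4b, Dusp10, Cdkn1a, Plekho1 and Prr5l. The means of Dusp10 (5.68), Plekho1 (5.26) and Prr5l (4.26) were not clearly above background. Pde4b, the phosphodiesterase that degrades cyclic AMP, led with r = 0.945 (0.883 without the 2 arrays farthest from the median of Nr4a2) and differed at day 1 by -0.56 ± 0.20. Dusp10, a phosphatase of stress kinases, had r = 0.912, and Cdkn1a, the cell cycle inhibitor p21, r = 0.910. Without the 2 farthest arrays, intact replicate 1 and day 1 replicate 2, Pde4b ranked 7, Cdkn1a 10, Dusp10 25, Plekho1 32 and Prr5l 55, so these 5 did not stay the closest.

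For Nr4a3 the 5 genes were Prr5l, Malt1, Pyurf, Vps13a and Stam. The means over the 12 arrays of Prr5l (4.26), Pyurf (3.45), Vps13a (3.83) and Stam (4.72) were not above background. Malt1, the paracaspase that relays antigen and lectin receptor signals to NF-kB, had r = 0.918, and 0.923 without the 2 farthest arrays. Prr5l, a partner of the kinase complex mTORC2, had r = 0.924 and 0.819, rank 16, without these arrays. For Nr4a1 they were Cish, Tppp3, Tmsb10, Mfng and Cd2, of which Mfng, with a mean of 4.98, was not above background. Cish, a feedback inhibitor of cytokine signalling through STAT5, had r = 0.953 and differed by -0.87 ± 0.22 at day 1. Tppp3, a tubulin-binding protein abundant in ciliated cells, had r = 0.937, and Cd2, an adhesion receptor of T and NK cells, r = 0.897. Without intact replicates 1 and 2, Cish ranked 2, Tppp3 6, Tmsb10 7, Mfng 8 and Cd2 17, and for Nr4a3, without day 1 replicates 2 and 3, Malt1 ranked 1, Pyurf 27, Stam 31 and Vps13a 64.

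The other genes of the pathway were taken as lists. None of the members of the 5 pathway lists passed at an adjusted p of 0.05 on any day. The immediate early genes beside the NR4A family were lower at day 1 in 23 of 26 cases, with a median of -0.55 against -0.017 over all genes, and 16 of 26 had day 1 arrays wholly below the intact arrays, a separation seen in 8.94% of probe sets. The median without day 1 replicate 2 was -0.43. At day 3 it was -0.31 (23 of 26 lower, 7 without overlap beside 6.68% of probe sets) and at day 7 -0.17 (22 of 26 lower, 6 without overlap beside 8.15%). Without intact replicate 3 these medians were -0.20 and -0.094. Ier3, a stress response gene, stood at -1.45 ± 0.31 at day 1, -0.70 at day 3 and -1.19 at day 7. Dusp2, a phosphatase that switches off MAP kinases, had group means of 3.41 to 4.83, not above background, so that its differences of -1.07, -0.74 and -1.42 are uncertain. Fos, the AP-1 subunit, differed by -0.61 ± 0.16 at day 1 but by -0.029 at day 3 and -0.20 at day 7.

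Genes upstream of the NR4A family were described in the same way. The list of cyclic AMP and CREB signalling, 21 of 26 genes measured, had a median of -0.20 at day 1, -0.054 at day 3 and -0.11 at day 7, with 6, 3 and 2 genes lower without overlap beside 8.94%, 6.68% and 8.15% of probe sets, and 0, 1 and 1 higher. The 2 of 21 genes at day 7 are near the background share. The share of all probe sets higher than intact without overlap is not given here. Without day 1 replicate 2 the day 1 median was -0.070, and without intact replicate 2 -0.092. Crtc1, a coactivator of CREB, differed by -0.20 at day 1 and by 0.50 and 0.52 at days 3 and 7, but its group means of 3.73 to 4.45 were not above background. Ptger4, a prostaglandin E2 receptor that raises cyclic AMP, differed by -0.083, -0.69 and -0.21, and Sik1, a kinase that restrains CREB coactivators, by -0.63, 0.38 and -0.34. For calcium, MEF2 and NFAT signalling (18 of 19 measured) the medians were -0.13 (-0.057 without day 1 replicate 2), -0.044 and 0.033. Of these genes Ppp3cb, a catalytic subunit of calcineurin, differed by -0.69 ± 0.19 at day 1 and Ppp3ca, another, by -0.15. At days 3 and 7 Ppp3ca was at 0.50 ± 0.18 and 0.16 ± 0.18. Hdac7, a deacetylase that holds MEF2 in check, was at -0.36 at day 1, with group means of 4.10 to 4.71, not above background.

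Partners of the NR4A proteins formed another list. Of 14 genes measured among 17 for retinoid X receptors, with which Nur77 and Nurr1 can pair, and for cofactors, 7 were lower and 7 higher at day 1 (median -0.017). Kdm1a, the demethylase of the CoREST complex that Nurr1 recruits, differed by -0.16 at day 1 and -0.72 ± 0.28 at day 7, Hdac2 by 0.050 and -0.47, and Rxrb by -0.045 and -0.84. The group means of Kdm1a and Rxrb, at 4.17 to 5.01, were not above background. In the wider nuclear receptor family 40 other members were measured, most of them, 33 or 34 in each group, with a mean at background. Their median was -0.067 at day 1, -0.054 at day 3 and -0.071 at day 7. Among these 43 receptors Nr4a2 had the lowest difference at day 1, Nr4a3 the third lowest and Nr4a1 the sixth. At day 3 the ranks from the lowest were 1 for Nr4a2, 2 for Nr4a1 and 16 for Nr4a3, and at day 7 they were 2, 12 and 13. As most of the other receptors were at background, these ranks say little about the family. Nr2f2, an orphan receptor of vascular and stromal cells, came between Nr4a2 and Nr4a3 at day 1 (-1.05 ± 0.54). At day 7 it was the lowest of the family, at -1.24. Its mean over the 12 arrays, 4.02, was not above background. Rarg, a retinoic acid receptor, was at -0.84 ± 0.29 at day 1. The clock receptors Nr1d1 and Nr1d2 were at -1.09 and -0.90 at day 7, when both were at background.

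Markers of other cells also differed between the groups, and fewer cells of a type and less RNA per cell cannot be told apart in such samples. Endothelial markers were lower in 12 of 13 cases at day 1, with a median of -1.45 (-0.905 without day 1 replicate 2), and the list mean was 4.29 to 6.03 at day 1, against 6.13 to 6.93 in intact samples. The 14 fibroblast and smooth muscle markers were all lower (median -1.27, and -0.98 without day 1 replicate 2), with a mean of 3.16 to 4.31 at day 1, against 4.68 to 5.43, and 13 of 14 had a day 1 mean at background. Epithelial markers of the alveolus were lower in 13 of 13 cases (median -1.26, and -1.52 to -0.92 with arrays left out in turn). Of these 13, 8 had a day 1 mean at background, and their medians at days 3 and 7 were -0.59 and -1.27. Neutrophil markers were higher in 13 of 15 (median 1.03), with a mean of 6.97 to 7.92 at day 1, against 6.43 to 6.85. Among these, the matrix genes Col3a1 (-2.37 at day 3, -2.10 at day 7) and Dpt (-2.23 at day 7) passed the test. Sftpd, surfactant protein D, also passed, at -1.98 at day 7 (limma adjusted p 0.00965 to 0.0271 over these values). The group means of Col3a1 (2.55 to 4.92) and Sftpd (2.54 to 4.52) were not above background. Dpt stood at 5.67 in intact samples and at 3.44, within background, at day 7. The size of these differences is thus uncertain.

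At day 3 the median was -1.16 for endothelial and -1.12 for fibroblast markers, and at day 7 -1.25 and -0.97, beside -0.74 and -1.20 for Nr4a2, -0.72 and -0.31 for Nr4a1 and -0.29 and -0.24 for Nr4a3 on those days. Dendritic cell markers, in which Nr4a3 is known to serve migration, had medians of -0.74, -0.21 and -0.14, and 9 or 10 of 11 had group means at background. Over the 12 arrays their mean level had r = 0.816 with Nr4a1, 0.813 with Nr4a2 and 0.745 with Nr4a3, and without the 2 arrays farthest from the median of each gene 0.846, 0.546 and 0.663. Such likeness was not particular to dendritic cell markers. In the same order r was 0.826, 0.777 and 0.718 for the immediate early genes and 0.755, 0.643 and 0.571 for T and NK cell markers. For neutrophil markers it was -0.337, -0.357 and -0.154. Patrolling monocyte markers had medians of -0.35, -0.46 and -0.22, T and NK cell markers of -0.50, -0.69 and -0.36, and classical monocyte markers of -0.63, -0.90 and -0.75. Without day 1 replicate 2 the day 1 medians were 0.045 for patrolling monocyte markers, -0.36 for classical monocyte markers and -0.40 for dendritic cell markers. Without day 7 replicate 1 the patrolling monocyte median at day 7 was -0.53, and without day 3 replicate 2 the T and NK cell median at day 3 was -0.40. Of the 13 T and NK cell markers 10 to 12 had group means at background.

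Eosinophil markers, which matter because eosinophils bear the sorting antigen, had medians of -0.47 at day 1, -0.086 at day 3 and 0.51 at day 7 over 6 genes. Single arrays moved them, to -0.033 at day 1 without day 1 replicate 2 and to 0.17 at day 7 without intact replicate 1. Ccr3, the eotaxin receptor, differed by 2.14 at day 3 and 2.71 at day 7. Il5ra, the interleukin 5 receptor, differed by 1.57 and 1.24. The group means of Il5ra, at 2.43 to 4.10, were not above background, nor was the intact mean of Ccr3 (3.37). Ear6, of the same list, differed by 1.03, -0.38 and 0.77 at days 1, 3 and 7. At day 3, 3 of the 6 genes were lower than intact, down to -1.55, and 3 were higher. Airway epithelial markers had medians of -0.85 (-0.48 without intact replicate 3), -0.56 and -1.19, and this list holds Tppp3, named above for its likeness to Nr4a1, at -1.998, -2.18 and -1.28. B cell markers had medians of -0.15, -0.11 and -0.11. The part of all these cells in the NR4A differences was not tested.

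**Figure D4:**
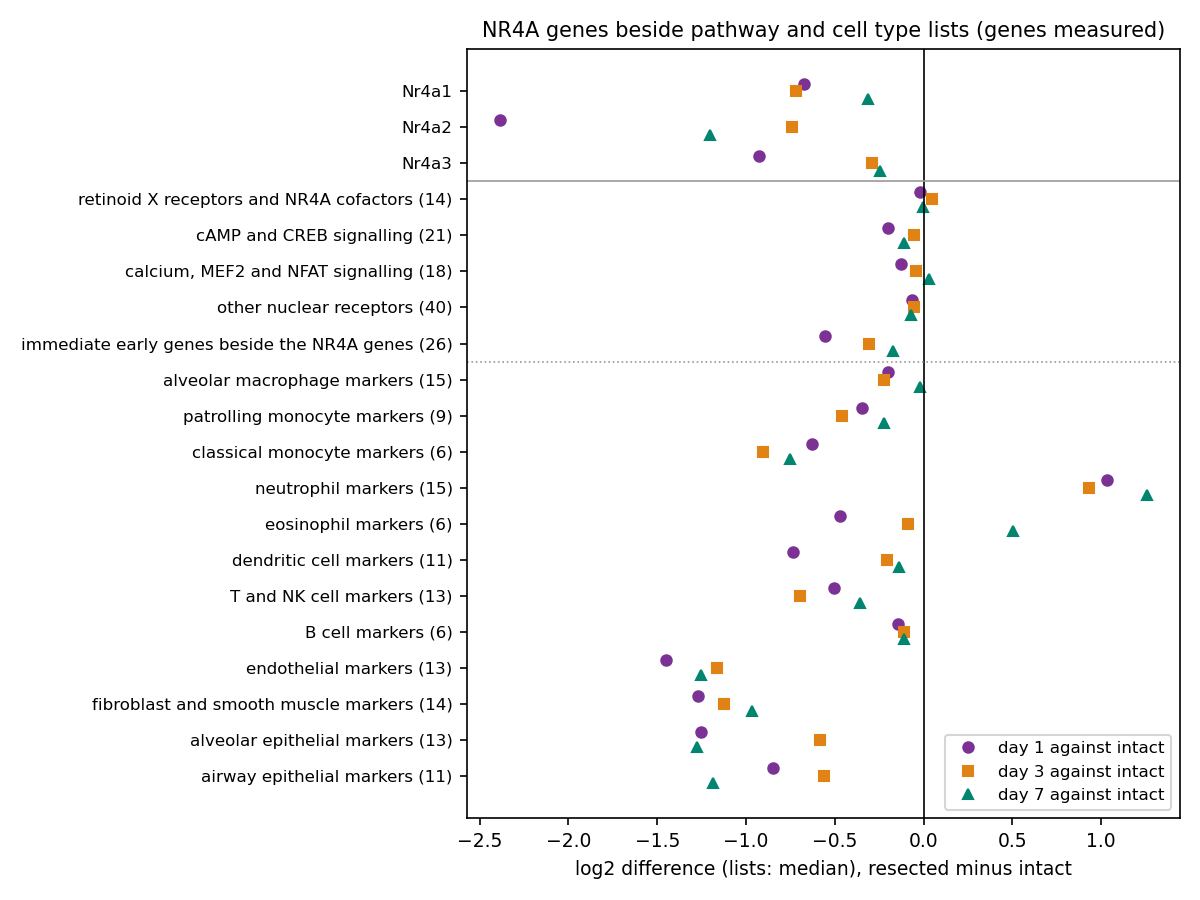
Log2 difference from intact of the 3 NR4A genes, and median log2 difference of each pathway and cell type list with its number of measured genes (x axis, resected minus intact), at day 1 (circles), day 3 (squares) and day 7 (triangles). Nr4a2 lies at -2.39 at day 1, and the neutrophil medians lie at 0.93 to 1.26. Single genes of the lists, some of which differed as much as Nr4a2, are not drawn.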

How the data were processed

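The authors deposited log2 signals, 1 per probe set and array. RMA and the Transcriptome Analysis Console are named in the submitters' processing notes, without versions. RMA corrects background, normalizes quantiles and summarises probes. It can compress differences near background. The log2 scale was inferred from the range of the values. The genome build of the array annotation is not given in the sources used here. Depth does not apply to arrays, and 3 per group limit the precision.

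Of 28846 probe sets 6640 controls were left out and 22206 tested in limma 3.58.1 (R 4.3.3), with 1 linear model over 12 arrays, the group as the only term, empirical Bayes moderation, two-sided tests and Benjamini-Hochberg adjustment at 0.05. The procedure was tested on simulated data. Of 279 list entries in 17 lists, 251 were measured. Genes were named from the 3 with the smallest p in the F test of each list and, for each NR4A gene, the 5 of highest r. Nr2f2 was singled out after its values were seen. The genes, lists and tests were chosen with earlier results of these data known.

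Replicate numbers recur across groups, and the arrays were not treated as pairs. Over all probe sets, deviations of same-numbered arrays correlated at -0.241 to 0.258. For Nr4a3, however, replicate 1 was the highest array in each group. A replicate block took the SE of its day 1 difference from 0.23 to 0.17 (limma adjusted p = 0.215). Alternatives covered moderation, normalization, dim probe sets, compared groups only, a replicate block, array weights, control quality and each array left out. A second treatment text in the labels, on co-cultured macrophages, was not used.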

Additional observations from a re-analysis of the deposited data

Results flagged for a closer look

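The labelling control dap, spiked in before labelling, is outside the gene measurements. It stood at 6.88 on day 3 replicate 1, 7.77 on day 7 replicate 2 and 6.47 on day 7 replicate 3, against 2.13 to 2.40 on the intact arrays. On these 3 arrays Nr4a2 was at 6.87, 6.14 and 5.92. The other arrays of the same days had 7.32 and 6.75 at day 3 and 7.49965 at day 7, so the array with dap lay between the others at day 3 and both lay below the other at day 7.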

How the results depend on the processing

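Across 24 comparisons of the 3 genes and up to 24 alternatives each, 554 of 570 values kept their direction and their side of the threshold. The adjusted p of the day 1 difference ranged from 0.0368 to 0.571 for Nr4a2, from 0.138 to 0.875 for Nr4a1 and from 0.139 to 0.847 for Nr4a3. All 6 values that crossed the threshold did so with array weights: Nr4a2 at day 1 (-1.995), at day 7 (-1.406), pooled (-1.366) and in the F test (F = 12.76), and Nr4a1 at day 3 (-0.6471) and pooled (-0.5471). The share of all probe sets that passed with these weights is not given here. Other values changed sign. Without the arrays that carried dap these were Nr4a3 at day 7 (0.0236, from -0.24), Nr4a2 at day 7 against day 3 (0.463, from -0.46) and Nr4a1 at day 3 against day 1 (0.0435, and 0.0535 with dap as a term). Nr4a3 at day 7 against day 3 was -0.0258 with array weights. With arrays left out in turn, the last 2 comparisons ranged from -0.143 to 0.0766 for Nr4a1 and from -0.0898 to 0.1996 for Nr4a3. A replicate block left every difference as it was, such as -2.388 for Nr4a2 at day 1 (adjusted p = 0.206), and changed no call. The cause of these changes was not tested. Other probe sets of the genes could not be tried, as each had 1. With 3 arrays per group, and Nr4a2 near background at day 1, its fold is the least certain.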

Other observations

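Genes were also described by the number of CRE cores in the 250 bases before their start, a split made after the NR4A promoters had been seen. The median log2 difference at day 1 was -0.001 for 12019 genes with 0 cores, -0.071 for 2773 with 1, -0.102 for 736 with 2, -0.129 for 127 with 3 and -0.249 for 33 with 4 or more, the NR4A genes left out. Median signal differed in the same order, from 2.98 with 0 cores to 5.77 with 4 or more. Without day 1 replicate 2 the medians were 0.007, -0.011, -0.019, 0.018 and -0.059. At day 3 and day 7 the genes with 4 or more cores had medians of 0.028 and -0.018.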
